A study of Danio rerio with 7 samples.

Results

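The genes described here belong to 4 signalling pathways, Wnt, BMP, Hedgehog and Notch, and were followed in zebrafish embryos injected with a morpholino against tbx5. They were taken from the authors' lists of probes that were at least 1.5-fold lower in the morphants on every array of a stage, wherever the symbol of a probe, or its current symbol, began like that of a Wnt, Frizzled, Dickkopf, Sfrp, BMP, Smad, Hedgehog, Patched, Gli, Notch, Delta, Jagged or her gene. This gave 25 genes with 33 probes, out of 3794 genes named through the lists and 43663 probes on the arrays. Of these, jagn1b matched by its first letters alone. It encodes Jagunal, a protein of the endoplasmic reticulum with no place in Notch signalling, and it was set apart. The other 24 were 5 Wnt genes, 3 BMP genes, 2 Hedgehog genes and 14 Notch genes. Every probe was placed on 1 row of the value table. Because names came only from the lists, a pathway gene that was lower at no stage has no name in these files and is not analysed here.

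Whole embryos of the AB strain were used. On each array the RNA of tbx5-MO embryos, in Cy5, was set against that of wild-type (WT) embryos of the same stage, in Cy3, with 2 arrays for 24 hpf, 2 for 30 hpf and 3 for 48 hpf. No array carried embryos injected with a mismatched morpholino, and no array had the dyes exchanged, so what the injection or the dye did cannot be told apart from what the tbx5-MO did. None of the sources used here states whether replicate arrays came from separate clutches, and the p-values therefore measure the spread between arrays alone, which may be technical. A morpholino is an antisense oligomer that blocks the translation or splicing of its target, and tbx5a itself was not among the named genes and is not analysed here.

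All 4 pathways are cell signalling systems that embryos use again and again. Wnt ligands bind Frizzled receptors and stabilise β-catenin, and BMP ligands bind serine/threonine kinase receptors that phosphorylate Smad proteins. Hedgehog ligands relieve the block that Patched sets on Smoothened and so act on Gli transcription factors. In Notch signalling, Delta and Jagged ligands on a cell trigger the cleavage of Notch receptors on its neighbour, and the freed Notch fragment switches on hairy and enhancer of split genes, called her genes in zebrafish, which repress neuronal differentiation and also form the clock of somite formation. In zebrafish, Notch and BMP signals act in the valve region of the heart, and Wnt signals act upstream of tbx5 in the pectoral fin field.

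The deposited value was a log2 ratio of morphant over WT, so a value below 0 means less RNA in the morphants. Array medians lay between -0.03 and 0.01, and the standard deviation over all probes between 0.77 and 1.49. Over all probes, arrays of 1 stage correlated weakly, with r from 0.07 to 0.14, and arrays of different stages with r from -0.03 to 0.07. On an array, 10.2% to 27.0% of the values occurred a single time, and 11.4% to 67.3% recurred in more than 10 probes, which was read as a sign of dim spots, an inference from the values. Names of the arrays in the lists carry a code that reads as a day. By it the 24 hpf replicate 1 and both 30 hpf arrays share 1 day, and the 24 hpf replicate 2 and the 48 hpf arrays share the other, so 30 and 48 hpf were never on the same day. In whole embryos, fewer cells of a type and less RNA per cell cannot be told apart. Markers of other tissues moved with the stages too, counted over genes named by another stage's list. Of the skeletal muscle markers, 22 of 24 were below 0 at 24 hpf, 18 of 19 at 30 hpf and 2 of 23 at 48 hpf, with median log2 ratios of -0.99, -1.54 and 0.71. The neuronal medians were -0.28, -1.13 and 0.64, of the lens markers -0.29, -1.95 and 1.87, of the red blood cell markers -0.63, -1.62 and 0.36, and of the epidermal markers -0.20, -0.07 and 0.02. Their part in the values below was not tested.

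The 24 hpf list named 13 of the 24 pathway genes, the 30 hpf list 11 and the 48 hpf list 5. At each stage the genes named by that stage's own list were lower by construction, with each log2 ratio at or below -0.584, and their values there are a description only. Values of a probe at a stage whose list did not name it were not chosen to be low. They are not free of choice, since each list holds every probe at or below -0.584 on all arrays of its stage. A probe absent from a list was therefore above that limit on some array there. Genes named by another stage's list numbered 15 at 24 hpf, 16 at 30 hpf and 22 at 48 hpf. The own list named 4, 3 and 3 of these as well. Where it held the same probe, low values were fixed by that choice. With limma's moderated test and Benjamini-Hochberg adjustment over all 43179 genes and single probes, 0 of them passed at any stage, and the lowest adjusted p was 0.328 at 24 hpf, 0.462 at 30 hpf and 0.848 at 48 hpf. At an unadjusted p under 0.05 in that test there were 2, 3 and 1, against 5204, 3538 and 2412 of all 43179. They were her15.2 and smad1 at 24 hpf, her15.2, her4.5 and her12 at 30 hpf, and her12 at 48 hpf. Each had been named by the stage's own list too. Over everything tested, 0.0301% was called for 24 hpf, 0.00695% for 30 hpf and 0.0% for 48 hpf.

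Counted without a test, 3 of the 15 genes at 24 hpf were at or below the limit on both arrays, namely her15.2, her4.5 and smad1, against 7.23% of all genes and single probes and 11.8% of all genes named by another stage's list. At 30 hpf they were 3 of 16, her15.2, her4.5 and her12, against 6.32% and 10.6%. At 48 hpf her12 alone of 22 was below the limit on all 3 arrays, against 1.87% and 3.24%. None of the 15, 16 or 22 genes was 1.5-fold higher on every array of a stage, where the same shares were 6.83% and 3.77% for 24 hpf, 6.06% and 4.2% for 30 hpf, and 1.92% and 3.21% for 48 hpf. Those at or below the limit were also named by the stage's own list, which holds every such probe. With so few genes, these counts are a description of the members and not a result about them. The nearest gene outside the limit was gli2a at 30 hpf, with -0.56 on both arrays, and the nearest values inside it were -0.59, on notch2 at 24 hpf and on jag1b and her13 at 30 hpf.

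Over the 4 pathways, 13 of 15 genes had a mean below 0 at 24 hpf, 9 of 16 at 30 hpf and 14 of 22 at 48 hpf. The median log2 ratios were -0.34, -0.21 and -0.07. For all genes named by another stage's list the medians were -0.18 over 2254 genes, -0.13 over 2453 and -0.08 over 3333, with 61.3%, 58.1% and 56.5% below 0, while those of all genes and single probes were -0.00 at each stage. Most pathway genes lay between the 10th and the 90th percentile of the named genes. Those below it were her15.2 at 24 hpf, her4.5, her15.2 and her12 at 30 hpf, and fzd8a, her12 and her11 at 48 hpf, and notch2 at 30 hpf was above it.

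**Figure D1:**
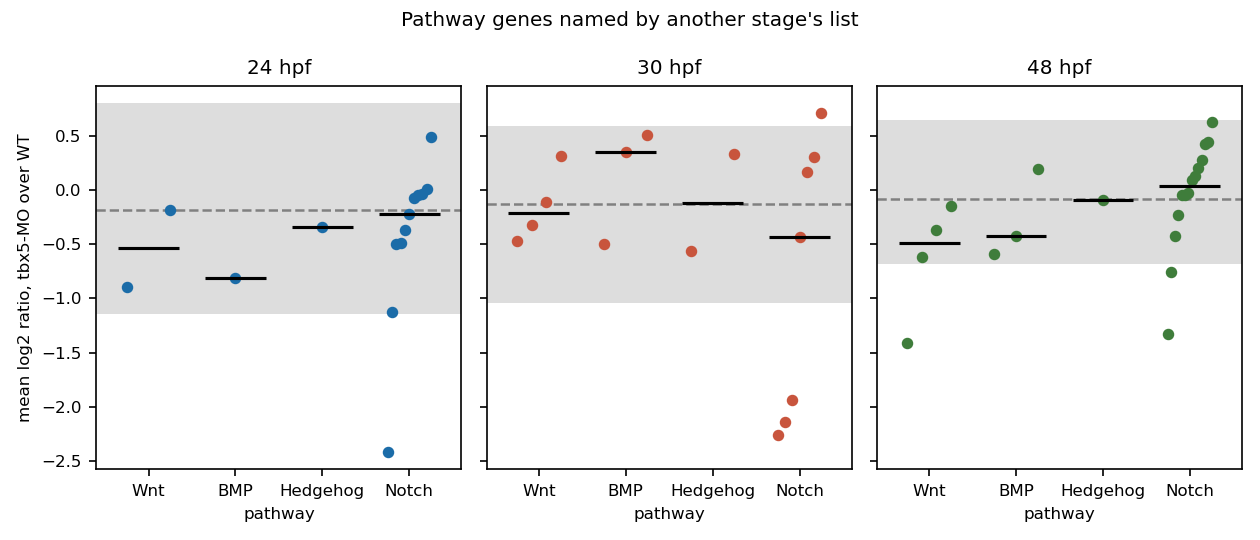
Mean log2 ratio (tbx5-MO over WT, vertical axis) of each pathway gene at 24, 30 and 48 hpf, for genes named by the list of another stage; each point is a gene, black lines are medians of a pathway, the dashed line is the median of all genes named that way and the grey band their 10th to 90th percentile. At 30 hpf her4.5, her15.2 and her12 lie at about -2, below the band, and at 48 hpf the Notch genes spread evenly about 0. The 30 hpf list had named her4.5, her15.2 and her12 too.

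Among genes named by another stage's list, her15.2 and her4.5 had the lowest means at 24 and 30 hpf. The lists of both stages had required these low values, so this order is a description only. Both genes are of the Hes5 type of Notch target, expressed in neural progenitors. The array's her15.2 probe lies on chromosome 11, bases 40466447 to 40466506, in the coordinates of the lists, whose scaffold names carry the prefix Zv7 and whose build is not otherwise stated. The lists call the gene hes5, and its current symbol was found through the Entrez number. It was named by the 24 and 30 hpf lists through the same probe, so its values at both stages had been chosen to be low. At 24 hpf the log2 ratios of her15.2 were -2.76 and -2.07, and at 30 hpf they were -2.04 and -2.25. The 2 lists together required low values on these 4 arrays. At 48 hpf, which neither list used, the values of her15.2 were -1.19, 0.83 and 0.28. The mean was -2.42 ± 0.49 (SD, n = 2) at 24 hpf, 5.34-fold lower in the morphants, and -2.14 ± 0.14 (SD, n = 2) at 30 hpf, 4.42-fold lower. The standard error of the fit was 0.52, and limma's adjusted p was 0.328 and 0.462. Each of the 7 values of this probe was shared by at most 2 probes on its array. A further limma fit took only the 6761 genes and probes with values shared by at most 10 probes. There her15.2 passed at 24 hpf with an adjusted p of 0.048, and it did not at 30 hpf, with 0.128. In that fit 164 of the 6761 were called at 24 hpf, 153 of them lower.

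For her4.5 the 24 hpf arrays read -1.06 and -1.18, the 30 hpf arrays -1.19 and -3.34, and the 48 hpf arrays -0.08, 0.83 and 0.57. The 24 and 30 hpf lists both named her4.5, so that low values on all 4 early arrays were fixed by that choice. The 48 hpf arrays, which neither list used, lay around or above 0. The mean of -1.12 ± 0.08 (SD, n = 2) at 24 hpf was 2.18-fold lower with an adjusted p of 0.463. At 30 hpf the mean of -2.27 ± 1.52 (SD, n = 2) rested largely on replicate 2, and the adjusted p was 0.462. The 24 hpf replicate 1 value was shared by 93 probes. Its probe, her4.2 in the lists, lies on chromosome 23 at bases 19868017 to 19868076. The reference table orders her12, her4.2, her4.1, her4.3, her4.4 and her4.5 side by side on that chromosome. The her4 genes are near-identical copies among which an oligonucleotide may not distinguish, so the values may stand for the her4 group rather than 1 copy. The same holds for her15.2 and its neighbour her15.1, which follow her2 on chromosome 11.

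The her12 probe lies on chromosome 23 at bases 19843561 to 19843620, 24396 bases from that of her4.5. her12 acts in the segmentation clock of the presomitic mesoderm. The 24 hpf log2 ratios of her12 were 1.38 and -0.40, those of 30 hpf -0.93 and -2.94, and those of 48 hpf -1.25, -0.86 and -1.87. The 24 hpf arrays disagreed in sign, whereas all 5 later arrays were low, as the 30 and 48 hpf lists that both named her12 required. The mean was -1.94 ± 1.42 (SD, n = 2) at 30 hpf with an adjusted p of 0.546, and -1.33 ± 0.51 (SD, n = 3) at 48 hpf with an adjusted p of 0.848. Its neighbour her4.5 was low at 24 hpf and not at 48 hpf, an opposite order that follows from which lists named each gene.

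The other her genes were less uniform. her11, a gene of the segmentation clock, was named by the 24 hpf list with -1.08 and -0.63, gave 0.63 and -1.50 at 30 hpf, and was below 0 on the 3 arrays at 48 hpf with -1.08, -0.91 and -0.26, a mean of -0.75 (adjusted p = 0.851). her8a, expressed in neural tissue, was named by the 30 hpf list with -0.67 and -1.12. At 48 hpf its values of -0.43, -0.33 and -0.53 were close to each other, with a mean of -0.43 ± 0.10 (SD, n = 3) and an adjusted p of 0.879, and at 24 hpf its arrays disagreed with 0.48 and -0.56. her2 and her13 were named by the 30 hpf list too. her2 had -1.47 and -1.90 there, -0.12 and -0.02 at 24 hpf, and -1.48, 0.83 and 0.95 at 48 hpf, so it was low on 1 of the 3 late arrays. Averaged over its probes, her13 had -0.79 and -1.49 there, against -0.03 and -0.04 on the 24 hpf arrays and -0.43, 0.28 and 0.98 on those of 48 hpf. Among the 7 her genes, those below 0 were 5 of 6 at 24 hpf (median -0.06), 4 of 4 at 30 hpf (median -2.04) and 4 of 7 at 48 hpf (median -0.03). The 30 hpf list itself also named 3 of these 4 at 30 hpf. Over all Notch genes the medians were -0.22, -0.43 and 0.04, and that at 30 hpf was 0.24 without the 3. Leaving out the 3 keeps only genes absent from the 30 hpf list, a choice that favours higher values. On the 48 hpf replicate 1 the median of the her genes was -1.08, while replicates 2 and 3 gave 0.28 each.

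**Figure D2:**
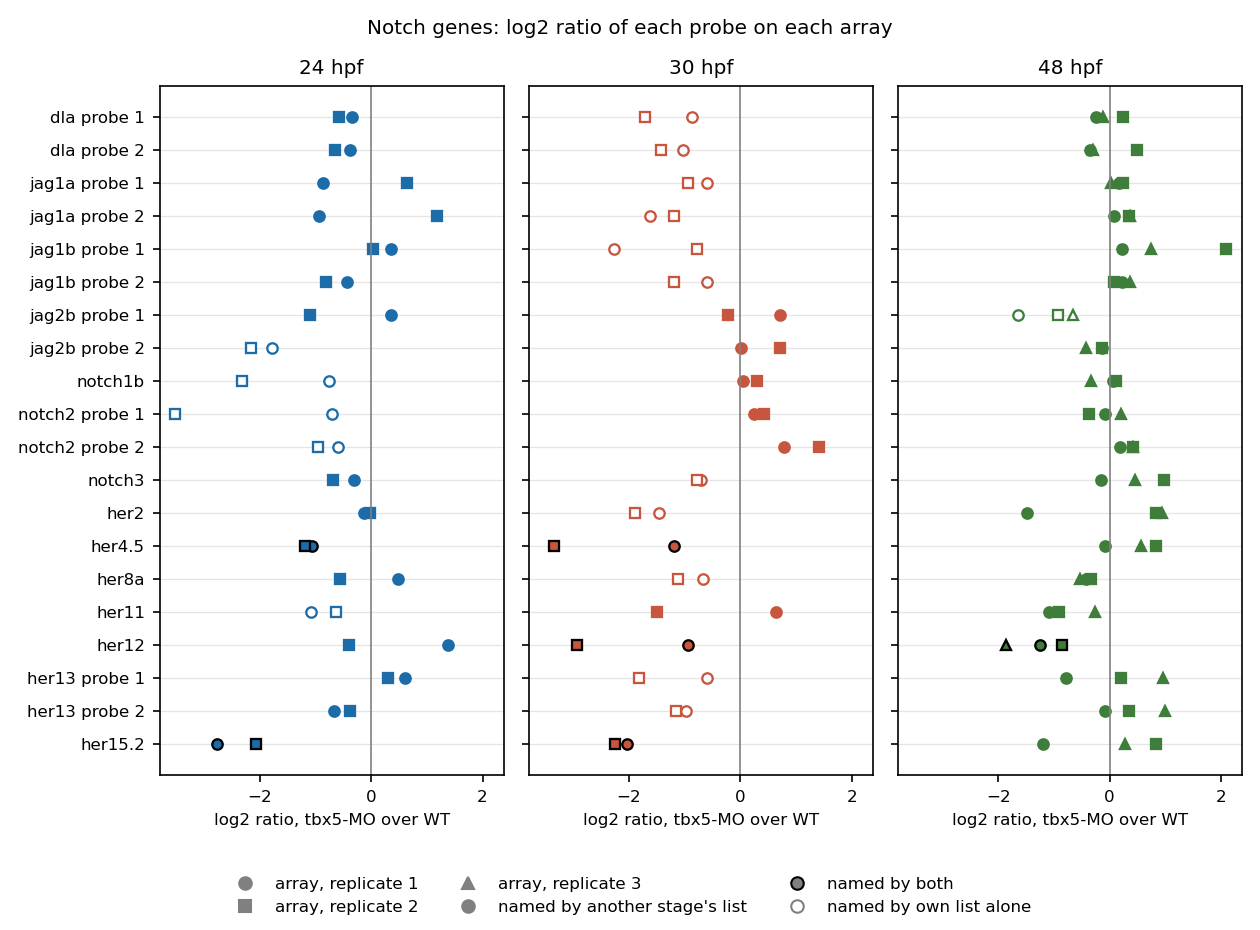
Log2 ratio (tbx5-MO over WT, horizontal axis) of each probe of the 14 Notch genes on each array at 24, 30 and 48 hpf; filled symbols are probes named by another stage's list, black-edged ones are named by that and by the own list, and open ones by the own list alone. her15.2 and her4.5 lie below -1 on all 4 arrays at 24 and 30 hpf, and her12 below -0.8 on all 5 arrays at 30 and 48 hpf. The lists of those stages had chosen them.

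Among the ligands, dla encodes DeltaA, which selects neurons by lateral inhibition. It was named by the 30 hpf list, where its mean over 2 probes was -0.94 on replicate 1 and -1.57 on replicate 2. At 24 hpf both arrays were also below 0, with -0.36 and -0.61, a mean of -0.49 ± 0.17 (SD, n = 2) and an adjusted p of 0.654. At 48 hpf dla was at -0.30, 0.37 and -0.21. The jagged genes went different ways. jag1a and jag1b were named by the 30 hpf list, with -1.12 and -1.07 for jag1a and -1.43 and -0.99 for jag1b, and at 48 hpf both were above 0 on each array. jag1b read 0.23, 1.09 and 0.56 at 48 hpf, on average 0.63 ± 0.44 (SD, n = 3) or 1.54-fold higher, with an adjusted p of 0.848. The 48 hpf values of jag1a were 0.13, 0.29 and 0.20 (mean 0.20, adjusted p = 0.988). At 24 hpf jag1a had -0.90 and 0.92, which cancel, and jag1b had -0.04 and -0.39.

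jag2b, which acts in the pronephros, had 1 probe on the 24 hpf list and another on the 48 hpf list. On the 24 hpf arrays the first gave -1.79 and -2.16, on the 30 hpf arrays 0.02 and 0.71, and on the 48 hpf arrays -0.13, -0.14 and -0.43. None of its values recurred on an array. The second gave 0.36 and -1.10, then 0.71 and -0.21, then -1.64, -0.92 and -0.65, in the same order. Each probe was at or below the limit on every array only at the stage whose list named it, which is how the lists were made. Read where they were not chosen, the first had a mean of -0.23 at 48 hpf (adjusted p = 0.956) and the second a mean of -0.37 at 24 hpf (adjusted p = 0.821). At 30 hpf the mean of both probes was 0.36 on replicate 1 and 0.25 on replicate 2, 0.31 on average with an adjusted p of 0.90.

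Of the receptors, notch1b and notch2 were named by the 24 hpf list and notch3 by the 30 hpf list. notch1b is expressed in endothelial and endocardial cells, and notch3 in the nervous system and in mural cells. notch1b had -0.76 and -2.31 at 24 hpf, and notch2 had -0.64 and -2.24 as the mean of 2 probes, so that replicate 2 carried most of both. At 30 hpf, where neither was chosen, both lay above 0 on both arrays. The values of notch2 were 0.51 and 0.92, a mean of 0.72 ± 0.29 (SD, n = 2), 1.64-fold higher, with an adjusted p of 0.730, and those of notch1b were 0.04 and 0.29 with an adjusted p of 0.972. At 48 hpf notch2 stayed between 0.02 and 0.31 and notch1b between -0.33 and 0.12. notch3 had -0.70 and -0.77 at 30 hpf. At 24 hpf it was below 0 on both arrays, with -0.31 and -0.68, a mean of -0.50 ± 0.26 (SD, n = 2) and an adjusted p of 0.665, and at 48 hpf it had -0.15, 0.98 and 0.45. On both 24 hpf arrays notch3 and dla were below 0, short of the limit on replicate 1 and past it on replicate 2.

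**Figure D3:**
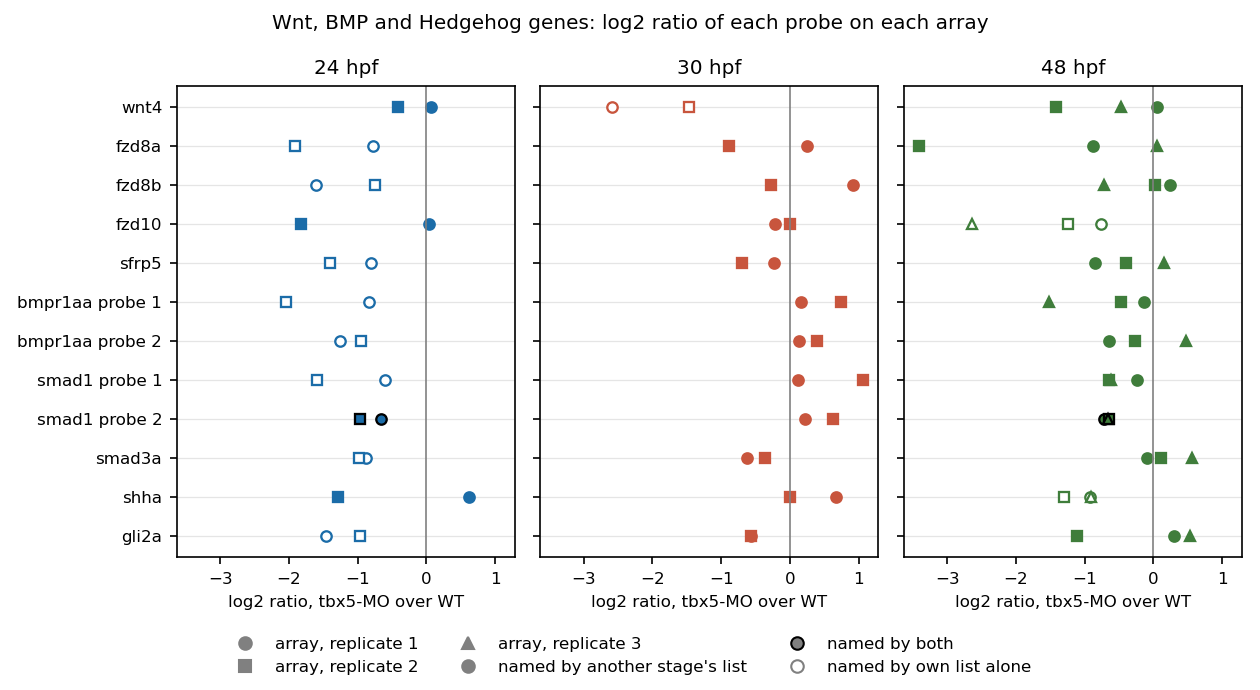
Log2 ratio (tbx5-MO over WT, horizontal axis) of each probe of the 10 Wnt, BMP and Hedgehog genes on each array at 24, 30 and 48 hpf; filled symbols are probes named by another stage's list, black-edged ones are named by that and by the own list, and open ones by the own list alone. Both smad1 probes are below 0 at 24 and 48 hpf and above 0 at 30 hpf.

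In the Wnt pathway, wnt4 was the only ligand. It was named by the 30 hpf list as wnt4a, with -2.58 and -1.46, a mean of 4.06-fold lower, and lay at 0.06 and -0.42 at 24 hpf. At 48 hpf wnt4 had 0.05, -1.42 and -0.48, on average -0.62 ± 0.75 (SD, n = 3) with an adjusted p of 0.857. Its probe lies on chromosome 17 in the lists and the gene on chromosome 11 in the reference table. The Frizzled receptors fzd8a and fzd8b, which act in the anterior brain, were named by the 24 hpf list with means of -1.35 and -1.17, and fzd10, a receptor of the dorsal neural tube, by the 48 hpf list. fzd10 had -0.76, -1.24 and -2.64 at 48 hpf. At 24 hpf its arrays disagreed, with 0.03 and -1.82 (mean -0.89, adjusted p = 0.598), and at 30 hpf it was close to 0. The 48 hpf mean of fzd8a was -1.41 ± 1.79 (SD, n = 3), with an adjusted p of 0.848. It rested largely on replicate 2, as the values were -0.88, -3.41 and 0.05. fzd8b ranged from -0.71 to 0.91 over the 5 arrays at 30 and 48 hpf. sfrp5 encodes a secreted Wnt inhibitor. It was named by the 24 hpf list with -0.80 and -1.40 and, of the Wnt genes that the 30 hpf list had not chosen, was the only one below 0 on both arrays at 30 hpf, with -0.23 and -0.70, a mean of -0.46 ± 0.33 (SD, n = 2) and an adjusted p of 0.832. Its 48 hpf values were -0.85, -0.40 and 0.15. The Wnt medians of -0.54 over 2 genes at 24 hpf, -0.21 over 4 at 30 hpf and -0.49 over 4 at 48 hpf rest on genes whose arrays mostly disagreed in sign.

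The BMP genes were a receptor and 2 transducers, and smad1, the transducer of BMP signals, was named by the 24 and the 48 hpf lists. The probe that both lists hold lies on chromosome 1, bases 34818457 to 34818512. There the 24 hpf arrays gave log2 ratios of -0.65 and -0.97, the 30 hpf arrays 0.23 and 0.63, and the 48 hpf arrays -0.72, -0.64 and -0.66. The other smad1 probe followed it with -0.61 and -1.59, 0.12 and 1.06, and -0.23, -0.64 and -0.62. Both probes were therefore below 0 on all 5 arrays at 24 and 48 hpf and above 0 on both arrays at 30 hpf. The lists had fixed the sign of the first probe on those 5 arrays and of the other at 24 hpf. At 24 hpf, where the 48 hpf list had chosen the first probe, its mean was -0.81 ± 0.22 (SD, n = 2) with an adjusted p of 0.397 and an unadjusted one of 0.046. At 48 hpf the mean of both probes, -0.58 ± 0.09 (SD, n = 3), was 1.5-fold lower with an adjusted p of 0.848, and at 30 hpf the mean was 0.51 ± 0.48 (SD, n = 2), 1.42-fold higher, with an adjusted p of 0.784. The values were seldom repeated on an array, by at most 10 probes.

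bmpr1aa, a type I BMP receptor, had the same order of signs. The 24 hpf list named both of its probes, whose mean was -1.05 on replicate 1 and -1.50 on replicate 2. At 30 hpf it had 0.15 and 0.56 (mean 0.35, adjusted p = 0.860), and at 48 hpf -0.39, -0.37 and -0.52, a mean of -0.43 ± 0.08 (SD, n = 3) with an adjusted p of 0.862. That small spread at 48 hpf hides an opposition of the probes on replicate 3, where they read -1.52 and 0.47. smad3a transduces signals of TGF-β and activin and not of BMP. It was named by the 24 hpf list with -0.88 and -0.98, remained below 0 at 30 hpf with -0.63 and -0.37 (mean -0.50, adjusted p = 0.774), and was at -0.09, 0.12 and 0.56 at 48 hpf. The BMP medians were -0.81 for the single gene at 24 hpf, 0.35 over 3 at 30 hpf and -0.43 over 3 at 48 hpf. They include smad3a, placed there by its symbol. Its means at 30 and 48 hpf had the opposite sign to those of smad1 and bmpr1aa.

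Of the Hedgehog genes, shha encodes the ligand Sonic hedgehog, made in the notochord, floor plate and the posterior margin of the fin bud. It was named by the 48 hpf list, with -0.92, -1.29 and -0.90, a mean of 2.05-fold lower. The 24 hpf arrays disagreed, with 0.62 and -1.29, and at 30 hpf it had 0.68 and -0.00. Its adjusted p was 0.848 at 24 hpf and 0.925 at 30 hpf. gli2a, a transcription factor of the pathway, was named by the 24 hpf list with -1.46 and -0.96. At 30 hpf both arrays gave -0.56, a mean of -0.56, 1.48-fold lower, with an adjusted p of 0.827, and the 30 hpf replicate 2 value was shared by 45 probes. At 48 hpf gli2a had 0.30, -1.11 and 0.53. jagn1b, set apart above, was named by the 24 hpf list with -1.11 and -1.35 and lay between -0.48 and 0.48 on the later arrays.

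Probes could be compared for the 8 genes that had 2, which were bmpr1aa, smad1, dla, jag1a, jag1b, jag2b, notch2 and her13. The largest gap was smallest for dla, at 0.28, with a median gap of 0.15 over the 7 arrays, and the median gap was smallest for smad1, at 0.11, with a largest gap of 0.62. The widest gaps were 2.55 for notch2 on the 24 hpf replicate 2, where the probes read -3.52 and -0.96, 2.15 for jag2b and 2.01 for jag1b. The probes of dla, jag1a and smad1 never had opposite signs, whereas those of her13, jag1b, jag2b and notch2 did on 2 arrays each and those of bmpr1aa on 1. For her13 and jag1b these were both 24 hpf arrays, so that their means there combine probes above and below 0. On the arrays of a stage whose list held both probes of a gene, equal signs were fixed by that choice. This covered 30 hpf for dla, jag1a, jag1b and her13, and 24 hpf for smad1, bmpr1aa and notch2. Probes of these genes that no list named cannot be compared.

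**Figure D4:**
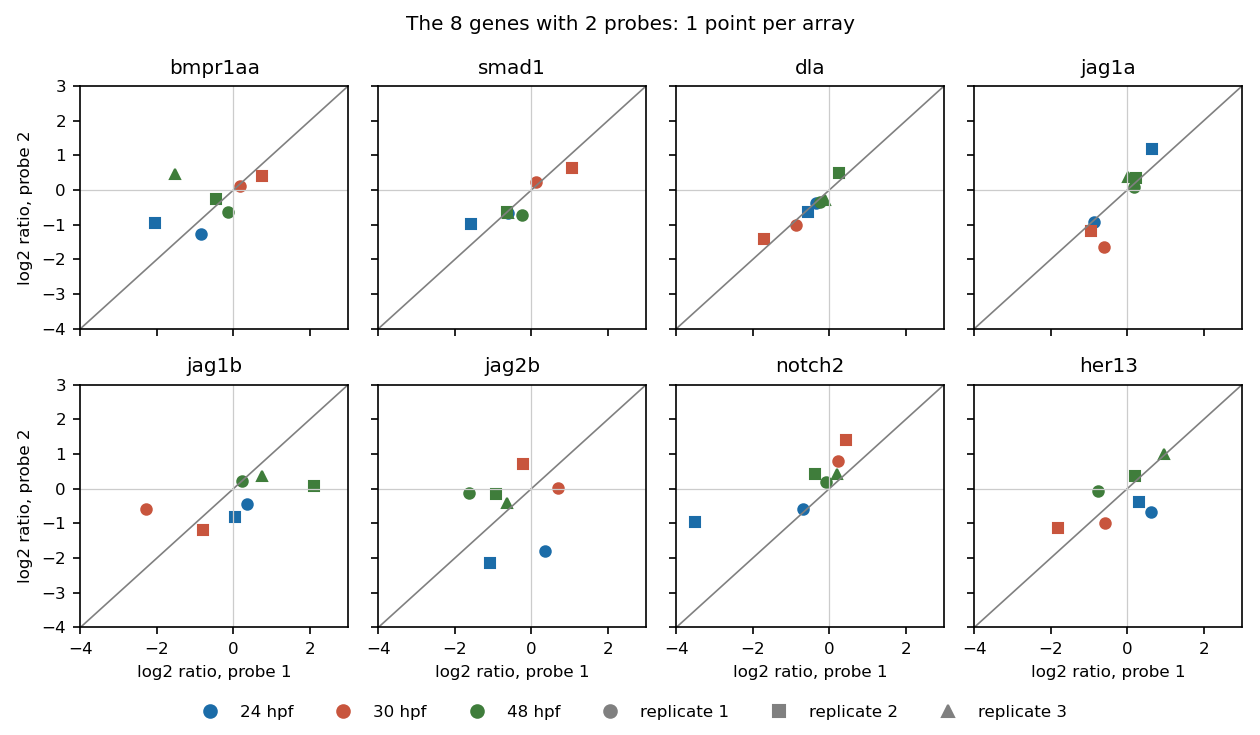
Log2 ratios (tbx5-MO over WT) of the first probe (horizontal axis) and the second probe (vertical axis) of the 8 genes with 2 probes, with 1 point per array coloured by stage and shaped by replicate, and the line of equality. The points of dla and smad1 follow the line, with largest gaps of 0.28 and 0.62, and those of jag2b and notch2 leave it by up to 2.15 and 2.55.

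Differences between stages were read only for genes named by the list of the stage outside the comparison. A list of a stage inside it had named some of them too, which fixed their low values there. This held for her15.2 and her4.5 at 24 and 30 hpf, her12 at 30 and 48 hpf, and smad1 at 24 and 48 hpf. For 48 hpf minus 24 hpf the genes read were the 11 of the 30 hpf list, 8 of which were higher at 48 hpf. her15.2 differed most, by 2.39 on the log2 scale (SE 0.68, adjusted p = 0.622), from -2.42 to -0.03. her4.5 differed by 1.57 (SE 0.70, adjusted p = 0.626), from -1.12 to 0.44, and notch3 by 0.93 (SE 0.51, adjusted p = 0.650), from -0.50 to 0.43. jag1b differed by 0.84 (SE 0.49, adjusted p = 0.656). her12 went the other way, by -1.81 (SE 0.81, adjusted p = 0.626). On the arrays of the shared day alone, which were the 24 hpf replicate 2 and the 48 hpf arrays, the differences were 2.05 for her15.2, 1.62 for her4.5, 1.11 for notch3, 1.02 for jag1b and -0.92 for her12. The arrays of the 2 stages did not overlap for 6 of the 11 genes, against 27.1% of all genes and single probes. These 6 include her15.2, her4.5 and her12, whose low side was fixed by a list. None of the 11 passed, against 0.00232% of everything tested. By limma's test an unadjusted p under 0.05 was found for her15.2 alone, against 3446 of all 43179.

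For 48 hpf minus 30 hpf, 13 genes of the 24 hpf list could be read. her4.5 was higher at 48 hpf by 2.71 (SE 0.70, adjusted p = 0.618) and her15.2 by 2.12 (SE 0.68, adjusted p = 0.655), while smad1 was lower by -1.09 (SE 0.48, adjusted p = 0.692) and bmpr1aa by -0.78 (SE 0.44, adjusted p = 0.736). smad3a, the transducer of the other branch, was higher by 0.70 (SE 0.45, adjusted p = 0.758). In all, 5 of the 13 were higher at 48 hpf, and for 7 the arrays of the stages did not overlap, against 29.0% of everything tested. These 7 include her4.5 and her15.2, which the 30 hpf list had named too, and smad1, which the 48 hpf list had named. None of the 13 passed, as 0.0% did over all. By limma's test 2 had an unadjusted p under 0.05, her4.5 and her15.2, against 3108 of all 43179. Since no day holds both stages, the day cannot be told apart from the stage except through the 24 hpf arrays. With the day as a fixed term of the fit the difference was 2.83 for her4.5 and 1.43 for her15.2. It was -0.44 for smad1 and -0.33 for bmpr1aa, with limma's adjusted p between 0.430 and 0.883. The day term changed the sign for notch2, from -0.59 to 1.01, and for notch1b, from -0.21 to 1.34. It also did so for fzd8a, from -1.09 to 0.03, and gli2a, from 0.47 to -0.03. The other genes fitted with that term kept their sign, and jag2b was not fitted with it.

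For 30 hpf minus 24 hpf only the 5 genes of the 48 hpf list could be read. her12 was lower at 30 hpf by -2.43 (SE 0.89, adjusted p = 0.615), from 0.49 to -1.94, and smad1 was higher by 1.24 (SE 0.48, adjusted p = 0.60), from -0.81 to 0.43. fzd10, shha and jag2b differed by 0.79, 0.67 and 0.61, less than their standard errors of 0.85, 0.71 and 0.70. On the shared day, that of the 24 hpf replicate 1, her12 differed by -3.32 and smad1 by 1.08, whereas fzd10 differed by -0.14, shha by -0.28 and jag2b by -0.11, of the opposite sign. The arrays of the stages did not overlap for 2 of the 5 genes, her12 and smad1, against 36.4%, and 0 passed, against 0.00232% of everything tested. The 30 hpf list had named her12 too and the 24 hpf list smad1, which fixed the low side of each difference. By limma's test an unadjusted p under 0.05 was found for 2, her12 and smad1, against 3454 of all 43179.

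**Figure D5:**
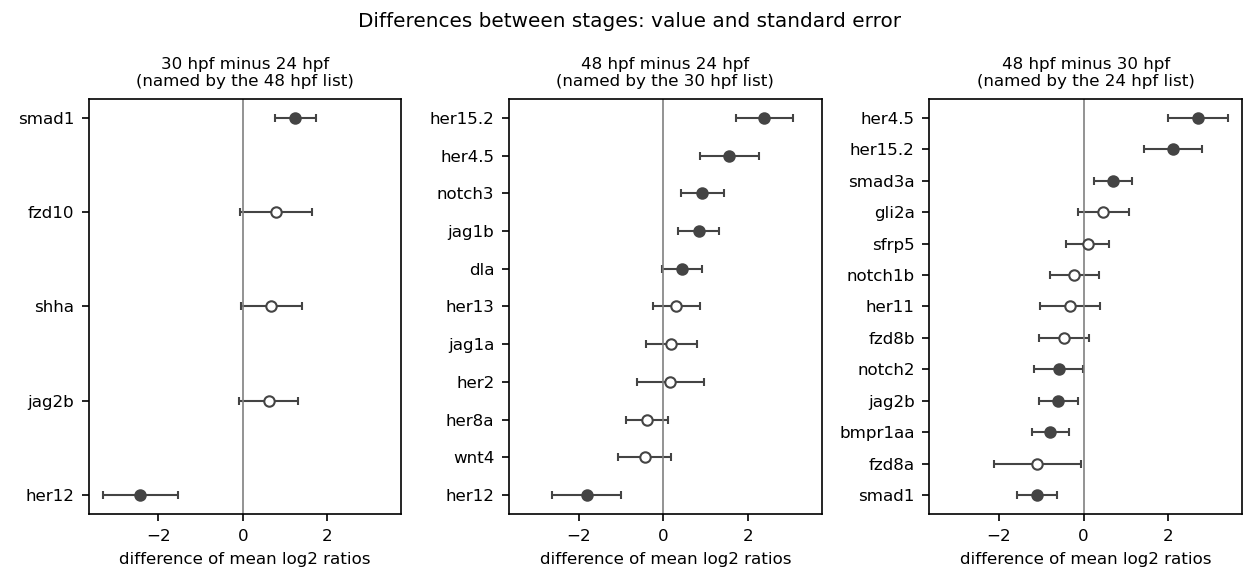
Difference between stages in the mean log2 ratio (horizontal axis, log2 units) with its standard error from the fit over all arrays, for each gene named by the list of the stage outside the comparison; filled points are genes whose arrays of the 2 stages did not overlap. her15.2 and her4.5 are higher at 48 hpf than at the earlier stages by 1.57 to 2.71, and her12 is lower at 30 and 48 hpf than at 24 hpf. The lists of the stages where these genes are low had chosen them, and no difference passed limma's test.

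Other components of the pathways, taken from a list of ligand processing factors, co-receptors, transducers and targets, were named for 14 Wnt, 12 BMP, 10 Hedgehog and 8 Notch genes. None passed in either direction at any stage among those named by another stage's list. The median log2 ratios at 24, 30 and 48 hpf were 0.05, 0.11 and -0.13 for the Wnt components, 0.06, -0.49 and -0.16 for BMP, -0.51, -0.37 and -0.31 for Hedgehog, and -0.34, -0.20 and 0.22 for Notch. Among the Hedgehog components 8 of 9 were below 0 at 48 hpf, the lowest being dhh, the ligand Desert hedgehog, with -0.82, -2.31 and -0.55 (mean -1.23, adjusted p = 0.848). gas1a, a Hedgehog co-receptor, had -1.91 and -0.54 at 30 hpf (mean -1.23, adjusted p = 0.589). The BMP targets went different ways where they had not been chosen. id2b had -2.08 and -0.31 at 30 hpf (adjusted p = 0.601) and a mean of 0.01 at 48 hpf, and msx3 had -1.24, -2.06 and -0.24 at 48 hpf (adjusted p = 0.848). vent had 0.84 and 1.23 at 30 hpf, a mean of 1.04 with an adjusted p of 0.626. Of the Wnt components, ror1, a receptor tyrosine kinase that binds Wnt, had -0.53 and -1.16 at 30 hpf (adjusted p = 0.855). tcf3b had -0.17 and -1.19 there (adjusted p = 0.710). It was entered on the list as a partner of β-catenin, but the gene that now bears this symbol encodes a basic helix-loop-helix E protein.

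Some Notch components were above 0 on every array of a stage whose list had not chosen them, and ascl1b, a proneural factor, was below 0 at 24 hpf with -1.72 and -0.24 (adjusted p = 0.642). neurod1, a factor of neuronal differentiation, had 0.42 and 3.65 at 24 hpf, a mean of 2.04 with an adjusted p of 0.376, which rested on replicate 2. At 48 hpf adam17b, a homologue of a protease that sheds membrane proteins, had 0.37, 0.28 and 3.52, a mean of 1.39 with an adjusted p of 0.848, which rested on replicate 3. Closer to each other at 48 hpf were neurod4, with 1.12, 1.21 and 1.17, and neurod1, with 1.21, 0.46 and 1.70. Their means were 1.17 and 1.12, each with an adjusted p of 0.848. Of the 8 Notch components, 5 had a mean above 0 at 48 hpf and 3 below. Neuronal markers as a whole were at a median of -0.28 at 24 hpf and 0.64 at 48 hpf, as given above.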

How the data were processed

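The authors labelled the RNA of tbx5-MO embryos with Cy5 and that of WT embryos with Cy3, hybridised them to Agilent zebrafish arrays, scanned these with a GenePix scanner and analysed them in GeneSpring GX. The deposited values were used as given, 1 normalized log2 ratio per probe for 43663 probes on 7 arrays, and for these the genome build, the normalization steps and any filtering of dim spots were not given in the sources used here. Without intensities, spot signal over background is unknown, and precision is limited by the number of arrays. A list per stage was deposited as well, of named probes with a log2 ratio at or below -0.584 on every array, with 3372, 2951 and 916 probes at 24, 30 and 48 hpf. The value table holds no probe names, and a listed probe was assigned to a row there if the stage's values were those of that row alone, which held for 6662 of 6740. Of 4317 probes with a symbol, 3962 matched the reference table (GRCz12tu) by Entrez number, and 2059 symbols were updated, among them those of 7 pathway probes. Averaging the named probes of each symbol left 43179 genes and single probes.

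The mean of each stage was estimated from all 7 arrays together with limma 3.58.1 (R 4.3.3), with contrasts between the stages, Benjamini-Hochberg adjustment over all 43179 and a threshold of 0.05. A gene was read at a stage only from probes that another stage's list names, and a difference only from the list of the stage outside it. For smad1 and jag2b, whose probes come from different lists, this meant single probes and their p from the fit of single probes where the lists differ. Values on each array are given for members of 2 lists, for up to 3 members per pathway, stage and direction with the largest mean and 1 sign on every array, and for up to 3 of the own list with the lowest mean, the rest by range or in full where few. The pathway members, component lists and tissue marker lists were chosen with earlier results of these data known. The main fit did not pair the arrays by replicate number. Same-numbered arrays of different stages had deviations from the stage means that correlated by 0.02 at most. With so few arrays per stage these correlations are not independent and cannot exclude a pairing. The name of the 24 hpf replicate 2 array in the lists carries the number 3, which no sample title of that stage has. Alternatives were median centring, scaling, fits of each stage alone, robust moderation, blocks for replicate number or day, single probes, values shared by at most 10 probes, other thresholds and each array left out. For contrasts the day block was a fixed term. The fit was tested on simulated data. Figures were drawn with matplotlib 3.10.9.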

Additional observations from a re-analysis of the deposited data

Results flagged for a closer look

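In 5 comparisons every array of 1 stage lay on the opposite side of 0 from every array of the other. They came from the 5, 11 and 13 genes read for the 3 differences between stages. Opposite signs were what singled these out, and with so few arrays that is not by itself a test. None passed limma's test. The share of all genes and single probes with such opposite signs was not counted, so the 5 are a description only. smad1 was below 0 on both 24 hpf arrays and above 0 on both at 30 hpf, a difference of 1.24 (adjusted p = 0.60), and below 0 again on the 3 arrays at 48 hpf, a difference from 30 hpf of -1.09 (adjusted p = 0.692). The 24 hpf list had fixed the sign of the smad1 probe read at 24 hpf. The 48 hpf list had fixed the sign of that probe at 48 hpf, but not of the other probe averaged with it. bmpr1aa was above 0 at 30 hpf and below 0 at 48 hpf, a difference of -0.78 (adjusted p = 0.736). For the jag2b probe of the 24 hpf list the difference between the same stages was -0.60 (adjusted p = 0.793). jag1b was below 0 on both 24 hpf arrays and above 0 on the 3 at 48 hpf, a difference of 0.84 (adjusted p = 0.656), although its probes disagreed in sign at 24 hpf.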

How the results depend on the processing

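Among pathway genes read from the list of another stage, or of the stage outside the comparison, none was called in the fits tried except her15.2 at 24 hpf. That was in limma's fit of the 6761 genes and probes with values shared by at most 10 probes (adjusted p = 0.048). It was 1 call among 5 genes tested, where 164 of the 6761 were called. The 24 hpf list had named her15.2 too, so its low values there were fixed by that choice. Where the probes of smad1 or jag2b come from different lists, these genes were read in the fit of single probes alone. The other fits did not examine them there. Counts over all genes and single probes depended on the fit. Of the 13, 3 and 0 called at 24, 30 and 48 hpf, scaling the arrays left 8 at 24 hpf and 1 at 30 hpf, a fit of each stage alone 0 and 0, and the array day as a block 8 and 0, while values shared by at most 10 probes gave 164, 6 and 49. For the 30 hpf minus 24 hpf, 48 hpf minus 24 hpf and 48 hpf minus 30 hpf contrasts, with 1, 1 and 0 calls, the day block gave 962, 604 and 808 and values shared by at most 10 probes 0, 78 and 59; scaling gave 0 and 0 in the first and second, and a threshold of 0.10 gave 3 and 6. With the replicate block the counts were 13, 3 and 0 at the stages and 0, 1 and 0 for the contrasts, and none of these pathway genes was called. Leaving out 1 array gave 1 to 1540 calls at 24 hpf, the most without the 24 hpf replicate 2 (1032 without replicate 1), 0 to 401 at 30 hpf and 0 to 294 for 48 hpf minus 30 hpf, each the most without the 30 hpf replicate 2, and 0 to 962 and 0 to 1117 for the contrasts with 24 hpf, each the most without the 24 hpf replicate 2. A stage left with 1 array was assumed to vary like the others. For the contrasts the day block was a fixed term of the fit. Those with 24 hpf then used only the 24 hpf array of the shared day, as when the other one is left out. The cause of the other shifts was not tested.

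Pathway medians, some of them of a single gene, moved with the arrays. Leaving out replicate 1 or replicate 2 of the stage gave Wnt medians of -1.12 or 0.05 at 24 hpf and -0.49 or 0.01 at 30 hpf, and Hedgehog medians of -1.29 or 0.62 at 24 hpf and -0.28 or 0.06 at 30 hpf. The Notch medians were then -0.56 or -0.12 at 24 hpf and -1.50 or 0.04 at 30 hpf. At 48 hpf, without replicates 1, 2 and 3 in turn, they were 0.20, -0.19 and -0.02 for Notch and -0.29, 0.42 and -0.40 for Hedgehog. Without genes that the own list names too, the Notch median at 24 hpf was -0.07. Values shared by at most 10 probes gave 0.34 for Hedgehog and 0.27 for Notch at 30 hpf, -0.04 for Notch and -0.58 for BMP at 48 hpf, and single probes 0.17 for Notch at 30 hpf. The median of the arrays gave 0.30 for Hedgehog at 48 hpf. The count of genes below the limit on every array fell from 3 to 1 of 7 at 30 hpf and from 1 to 0 of 7 at 48 hpf with values shared by at most 10 probes, and a fold of 2 left 0 at 48 hpf. By single probes it was 2 of 29 at 48 hpf, and 1 probe of 20 was higher on every array at 30 hpf. The signal of the spots over background is unknown and limits all of these.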
